A study of Mus musculus with 9 samples.

Results

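Dpt, Pcolce2, Thbs4, Mfap5, Prg4, Cytl1, Penk, Cd34 and Thy1 are 9 genes, out of 19938 measured, that stood higher on the array of reporter-negative stromal cells than on every other array of sorted bone marrow stroma. The 9 were chosen by their log2 signals on the sorted arrays, namely the excess of the YFP-negative array, so that excess is described here and not tested. Each gene had exactly 1 row on the array. 7 of them encode secreted proteins, most of them parts of fibrous connective tissue, and 2 encode cell surface proteins, so the name "fibrous matrix genes" covers only some of the group.

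The study profiled mouse stroma sorted as CD45-Lin-CD54+BP1+ on Affymetrix Mouse Gene ST 1.0 arrays. CD45 is the leucocyte antigen, CD54 is the adhesion molecule encoded by Icam1, and BP1 is the aminopeptidase encoded by Enpep. 1 array held YFP-negative cells of this gate from IL7-Cre Transgenic/Rosa-eYFP hetero mice, and 3 arrays held YFP-positive cells from mice of that genotype. The gate of wild type C57Bl/6J mice was on 3 further arrays, and unsorted total marrow of wild type mice was on 2. All mice are labelled as young adults of the C57Bl/6J strain. The sorted mice were 6 to 12 weeks old, and no treatment is labelled in any group. In the reporter strain YFP marks a cell in which the Il7-driven Cre is, or once was, active, so a YFP-negative cell is one in which no recombination was seen. The YFP-negative sample came from 2300 cells, the other sorted samples from 1800 to 10000 cells and total marrow from 10 ng of RNA. The labels do not say whether arrays of a group came from separate mice, so p-values measure the spread between these samples, which may be technical. The YFP-negative group has a single array with no replicate, and anything particular to its preparation cannot be told apart from its group.

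Fibrous tissue is built from collagen fibrils and elastic microfibrils that fibroblasts assemble outside the cell. Procollagen is trimmed by proteases, fibrils are spaced and joined by small proteins, and microfibrils carry elastin. Tendon, joint lining and the sheath of large vessels are rich in such fibroblasts, while most marrow stroma that makes Il7 consists of reticular cells around sinusoids that feed developing blood cells.

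The YFP-negative array lay on another level from the other 8. Its median over 21789 rows was 3.46 (log2 signal as deposited), against 4.51 to 4.60 on the others. The per-array values that follow are log2 signals as deposited unless a sentence says otherwise, so they understate the YFP-negative array. Beside them stand values after cyclic loess, a normalization that removes that offset. On the loess scale Icam1 stood at 6.66 on the YFP-negative array, against 6.26 to 6.70 on YFP-positive and 6.02 to 6.44 on wild type arrays, and at 5.09 on both total marrow arrays. Enpep stood at 6.81, against 5.79 to 7.64 and 6.88 to 7.28 on those sorted arrays, and 3.79 and 3.76 in total marrow. Ptprc, which encodes CD45, stood at 3.86, above the 3.54 to 3.77 of the 6 other sorted arrays and far below the 9.62 and 9.70 of total marrow. Il7, named in the Cre of the reporter mice and no marker of the gate, stood at 7.03, against 6.49 to 7.78 on YFP-positive and 7.32 to 7.78 on wild type arrays. In bulk samples such as these, fewer cells of a type and less RNA per cell cannot be told apart.

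The upstream sequences of 3 members are shown because they hold a searched motif. RefSeq's promoter table (GRCm38.p6) held 5 of the 9 members, and the 250 bases before the annotated start were searched on both strands. The motifs were TATAAA, the E-box CAGCTG, the AP-1 site TGACTCA and CATTCC, a core bound by TEAD factors. Dpt (chr1:164796413-164796662, plus strand) and Pcolce2 (chr9:95637378-95637627, plus strand) held 1 E-box each, 200 and 119 bases before the start, and Thbs4 (chr13:92794819-92795068, minus strand) held 2 overlapping CATTCC. Capitals mark these matches.
Dpt: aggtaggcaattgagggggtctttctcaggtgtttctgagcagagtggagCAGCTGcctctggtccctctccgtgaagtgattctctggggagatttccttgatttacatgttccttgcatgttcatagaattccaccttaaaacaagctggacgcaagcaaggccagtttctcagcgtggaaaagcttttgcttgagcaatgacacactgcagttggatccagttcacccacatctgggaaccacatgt
Pcolce2: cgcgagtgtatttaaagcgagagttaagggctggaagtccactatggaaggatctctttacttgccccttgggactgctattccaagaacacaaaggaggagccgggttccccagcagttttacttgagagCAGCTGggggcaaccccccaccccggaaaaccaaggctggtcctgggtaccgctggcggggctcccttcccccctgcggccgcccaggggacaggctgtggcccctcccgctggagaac
Thbs4: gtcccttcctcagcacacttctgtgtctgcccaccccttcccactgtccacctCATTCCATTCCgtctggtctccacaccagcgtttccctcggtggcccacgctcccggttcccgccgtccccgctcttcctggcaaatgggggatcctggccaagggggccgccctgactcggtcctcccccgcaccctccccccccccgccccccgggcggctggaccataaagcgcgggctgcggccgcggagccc
Of 32851 promoters in the table, 13.0% held CAGCTG, 12.6% held CATTCC, 12.4% held TATAAA and 4.46% held TGACTCA in the same window. Cd34 and Cytl1 held none of the 4 motifs there, and no motif was shared by more than 2 of the members searched. A match is a description of these letters.

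Dpt encodes dermatopontin, a small protein that binds decorin and speeds collagen fibril formation. Its signal was 6.77 on the YFP-negative array. YFP-positive arrays 1 to 3 held 3.09, 3.12 and 4.09, wild type arrays 1 to 3 held 3.33, 3.93 and 5.34, and the total marrow arrays held 3.01 and 3.08. The YFP-negative array was above all others, and wild type array 3 stood out among the rest. On the loess scale the YFP-negative value was 7.71, which is 2.31 above that wild type array.

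Mfap5 encodes a glycoprotein of the microfibrils that carry elastin. It held 7.36 on the YFP-negative array, against 3.77, 3.53 and 4.03 on YFP-positive, 4.12, 4.59 and 6.31 on wild type and 3.60 and 3.53 on total marrow arrays. The high wild type array was again number 3, which came within 1.05 of the YFP-negative array as deposited and within 2.16 after cyclic loess. Dpt and Mfap5 thus shared their second-highest sorted array. Across the 6 YFP-positive and wild type arrays their loess values followed each other (Pearson r = 0.96, Spearman rho = 0.94), as a description over 6 arrays in which wild type array 3 is high for both.

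Pcolce2 encodes an enhancer of the protease that trims procollagen. Its signal was 5.53 on the YFP-negative array, while all other arrays lay close together. YFP-positive arrays held 2.86, 2.91 and 3.27, wild type arrays 3.01, 3.15 and 3.12, and total marrow arrays 2.84 and 2.95. After cyclic loess the distance to the highest of the 6 other sorted arrays was 3.03.

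Thbs4 encodes thrombospondin 4, a multimeric glycoprotein of tendon and muscle matrix. The YFP-negative array held 6.85, against 4.18, 4.18 and 4.80 on YFP-positive, 4.58, 4.98 and 4.25 on wild type and 4.02 and 4.21 on total marrow arrays. No other array came near, and the loess distance to the next sorted array was 3.10.

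Prg4 encodes lubricin, the boundary lubricant of joint surfaces, and it had the widest range of the 9 over the YFP-positive and wild type arrays. It held 10.51 on the YFP-negative array. YFP-positive arrays held 6.71, 4.02 and 8.07, wild type arrays 3.77, 5.73 and 3.62, and total marrow arrays 3.59 and 3.67. Among YFP-positive arrays number 2 was close to total marrow, and numbers 1 and 3 were well above it. The loess distance from the YFP-negative array to YFP-positive array 3 was 3.67.

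Cytl1 encodes a small secreted protein known from cartilage and from CD34+ blood cells. It held 9.75 on the YFP-negative array, against 4.31, 4.15 and 4.43 on YFP-positive, 4.23, 6.72 and 4.09 on wild type and 3.94 and 4.21 on total marrow arrays. Wild type array 2 was the single high array outside the YFP-negative sample. The loess distance, 4.42, was the largest of the 9.

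Penk encodes proenkephalin, the precursor of enkephalin opioid peptides. It held 5.60 on the YFP-negative array, against 4.15, 3.61 and 4.77 on YFP-positive, 3.50, 3.05 and 3.77 on wild type and 4.69 and 4.25 on total marrow arrays. The YFP-negative array led by 0.83 as deposited and by 1.98 after cyclic loess, and YFP-positive array 3 came next among sorted arrays.

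Cd34 encodes a sialomucin of blood progenitors, endothelium and many fibroblasts. It held 5.34 on the YFP-negative array, against 4.14, 3.95 and 3.81 on YFP-positive and 3.95, 3.96 and 3.99 on wild type arrays, and total marrow held 6.32 and 6.36. The 6 other sorted arrays hardly differed, and the loess distance to the highest of them was 2.39. Against the mean of total marrow the YFP-negative array was 1.00 lower as deposited, and 0.18 higher after cyclic loess, so its direction turns with the scaling.

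Thy1 encodes a small lipid-anchored surface protein of T cells, neurons and fibroblasts. It held 5.11 on the YFP-negative array, against 4.15, 4.61 and 5.02 on YFP-positive and 4.43, 4.82 and 4.93 on wild type arrays, and total marrow held 7.78 and 8.09. As deposited the YFP-negative array led the sorted arrays by only 0.09. After cyclic loess the lead was 1.32, and the array remained 1.41 below the mean of total marrow (2.82 below as deposited).

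**Figure D1:**
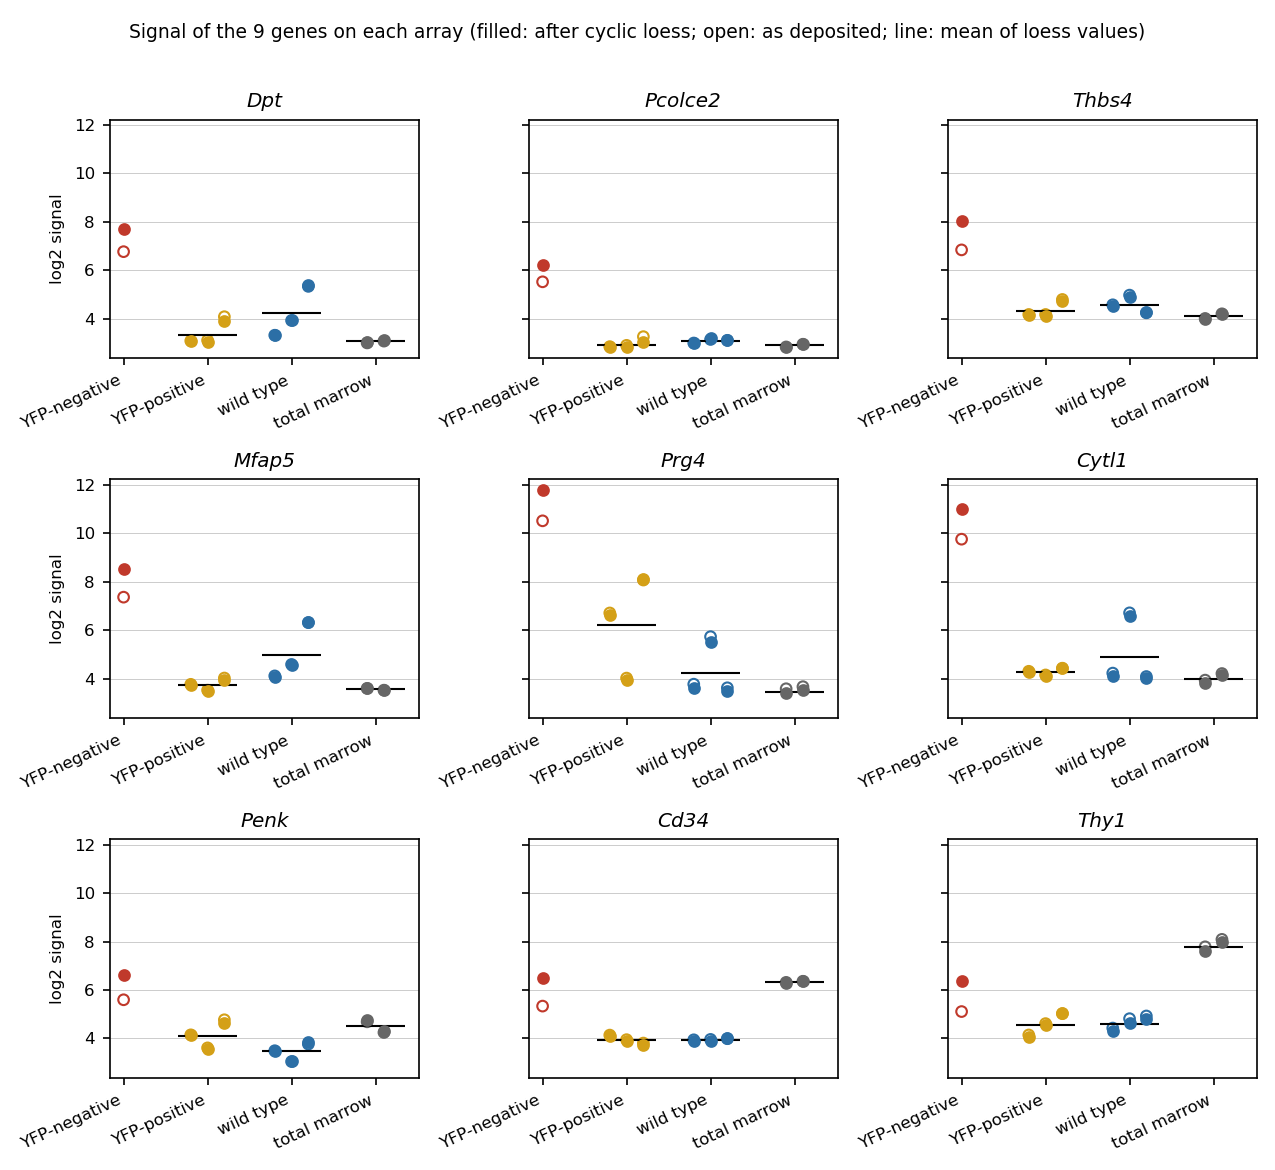
Log2 signal of each of the 9 genes on the 9 arrays, by group (x axis), as points per array with filled circles for values after cyclic loess, open circles for values as deposited and a line at the mean of the loess values of groups with over 1 array. The YFP-negative array is the highest sorted array in every panel. Total marrow is higher than it for Thy1 on both scales and for Cd34 as deposited.

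The rank of a gene within its own array does not depend on the offset of the YFP-negative array. Prg4 lay at percentile 99.4 of the rows of the YFP-negative array, against percentiles 32.2 to 93.2 on the 6 other sorted arrays. Cytl1 lay at 98.8 against 42.3 to 76.9, Mfap5 at 93.4 against 26.1 to 73.0, and Pcolce2 at 80.0 against 6.78 to 18.4. Thy1 lay at 75.5 against 42.9 to 58.0, and at 87.4 and 90.4 on the total marrow arrays. The other 4 members also had their highest percentile of the sorted arrays in the YFP-negative one, from 77.9 for Cd34 to 90.7 for Thbs4.

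All 9 members exceeded each of the 6 other sorted arrays on both scales, as the choice fixed; over all rows 24.9% did so after cyclic loess and 0.881% as deposited, and 23.7% lay below all 6 after cyclic loess. The 9 led by at least 1 log2 unit after cyclic loess, as 1.24% of all rows did. Ordered by the loess distance to the highest of the 6, 8 members were among the first 25 of 19938 genes, and Thy1 came at rank 104. Genes outside the group lay between them. Aspn, which encodes the proteoglycan asporin, came first at 5.41, Igfbp6 took rank 3 at 3.96 and Chad, which encodes the cartilage protein chondroadherin, rank 5 at 3.65 (predicted genes and small RNAs left out). Vmn2r9 (2.63), Ormdl1 (2.63), Zfp759 (2.29), Zdhhc15 (2.22) and Cstad (2.18), which stand in none of the lists used below, took ranks 8, 9, 12, 13 and 14. Aspn, Chad, Vmn2r9, Ormdl1, Zfp759, Zdhhc15 and Cstad were singled out after their values were seen.

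The members did not all rise on the same arrays outside the YFP-negative array. 4 of them stood at least 1 log2 unit above the median of the 6 YFP-positive and wild type arrays on some array (cyclic loess), and the arrays differed: Prg4 on YFP-positive arrays 1 and 3, Cytl1 on wild type array 2, Dpt and Mfap5 on wild type array 3. The share of all rows that did so was 1.29% and 1.54% on those YFP-positive arrays and 0.330% and 0.886% on those wild type arrays. The other 5 members did so on none of the 6. The highest of the 6 was YFP-positive array 3 for Prg4, Penk and Thy1, and wild type array 2 for Pcolce2, Thbs4 and Cytl1. It was wild type array 3 for Dpt and Mfap5, and YFP-positive array 1 for Cd34. Chad stood at 7.14 on YFP-positive array 3, where Prg4 was also high, and at 6.63 on wild type array 2, where Cytl1 was, against 3.97 to 4.62 on the other 4, YFP-positive array 1 among them, and it held 10.79 on the YFP-negative array (loess values).

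**Figure D2:**
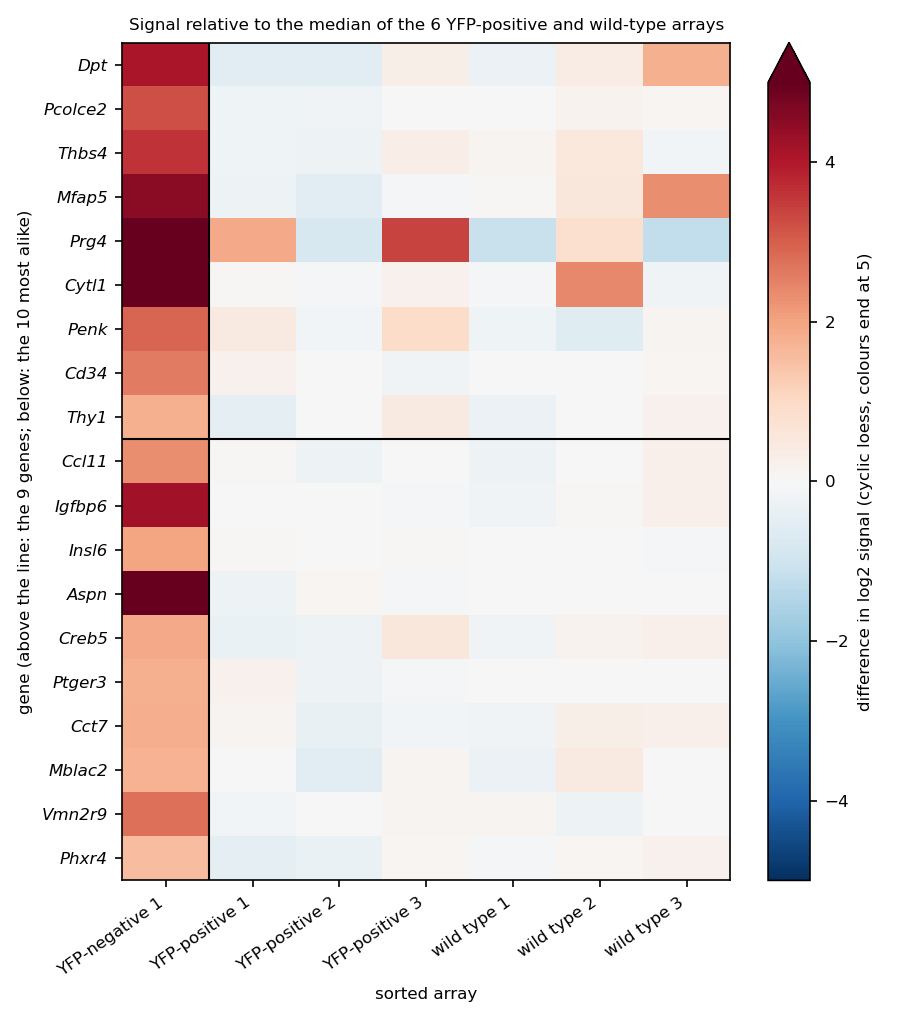
Log2 signal after cyclic loess of the 9 genes (above the line) and of the 10 genes most like their mean profile (below), on the 7 sorted arrays, as the difference from the median of the 6 YFP-positive and wild type arrays. The YFP-negative column is high throughout, and outside it the strongest cells are Prg4 on YFP-positive arrays 1 and 3, Cytl1 on wild type array 2, and Dpt and Mfap5 on wild type array 3.

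Likeness was measured by Pearson r over the 7 sorted arrays, among 886 genes that ranged over at least 2 log2 units there. It mostly reads the single YFP-negative array and says nothing of shared roles. Most like the mean profile of the 9 were Ccl11, which encodes eotaxin (0.99), Igfbp6, which encodes a binder of insulin-like growth factors (0.98), Insl6 (0.97), Aspn (0.97), the transcription factor gene Creb5 (0.97), the prostaglandin receptor gene Ptger3 (0.97), Cct7 (0.96), Mblac2 (0.96), Vmn2r9 (0.96) and Phxr4 (0.96). Ccl11 stood at 6.41 on the YFP-negative array, against 3.82 to 4.33 on the 6 others, and Igfbp6 at 8.46 against 4.09 to 4.50 (loess values). For single members the same names recurred: Igfbp6, Aspn and Insl6 led for Pcolce2 and Cd34, and Aspn, Insl6 and BC005624 for Thbs4. Creb5, Fxyd5 and Polr2k led for Thy1, Noc4l, Ahsa2 and BC005624 for Cytl1, and Tceanc2, Sync and Sparcl1 for Prg4. Sparcl1, Ttc28 and Mapre2 led for Penk, Phxr4, Asb7 and Sp4 for Dpt, and Dnajb3, Asb7 and Rftn2 for Mfap5. These r values lay between 0.95 and 0.99.

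The YFP-positive and wild type groups were also tested against total marrow. The total marrow arrays did not enter the choice of the 9, but the sorted arrays did. The choice favoured genes that are low on the sorted arrays. So neither a lack of higher calls nor the lower calls are a finding about the 9. The gate also leaves out CD45+ cells, which total marrow holds, and their part in the lower calls was not tested. The fit was made on deposited values in limma over all 21789 rows (Benjamini-Hochberg adjustment, called at an adjusted p under 0.05). Cd34 and Thy1 were lower in both sorted groups than in total marrow, and the 7 secreted members were not called in either. In YFP-positive cells 2 of 9 members were called, both lower, where 29.5% of all rows were called, 11.0% higher and 18.5% lower. In wild type cells it was also 2 of 9, both lower, where 24.3% of rows were called, 10.4% higher and 13.9% lower. The median difference of the 9 was 0.21 for YFP-positive and 0.49 for wild type cells, beside 0.09 and 8.63e-05 over all rows. Both comparisons share the total marrow arrays.

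Cd34 averaged 3.97 ± 0.16 in YFP-positive cells (SD, n = 3) against 6.34 ± 0.03 in total marrow (SD, n = 2), a difference of -2.37 ± 0.13 (SE, limma adjusted p = 5.14e-06). It averaged 3.97 ± 0.02 in wild type cells (SD, n = 3), a difference of -2.37 ± 0.13 from total marrow (SE, limma adjusted p = 4.71e-06). Thy1 averaged 4.59 ± 0.44 in YFP-positive cells and 4.73 ± 0.26 in wild type ones (SD, n = 3 each), against 7.94 ± 0.22 in total marrow (SD, n = 2). Its differences from total marrow were -3.34 ± 0.27 (SE, limma adjusted p = 5.79e-05) in YFP-positive cells and -3.21 ± 0.27 (SE, limma adjusted p = 6.95e-05) in wild type cells. Cd34 in both sorted groups lay below the median of all values (4.43), so the size of its differences is not fully resolved.

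Prg4 averaged 6.27 ± 2.06 in YFP-positive cells (SD, n = 3) against 3.63 ± 0.06 in total marrow (SD, n = 2). The difference of 2.64 had a 95% interval from 0.02 to 5.26 and was not called (limma adjusted p = 0.121). Without YFP-positive replicate 2 the difference was 3.76 and was called (limma adjusted p = 0.0108), and without YFP-positive replicate 3 it was 1.74 (limma adjusted p = 0.253). Mfap5 averaged 5.01 ± 1.16 in wild type cells (SD, n = 3) against 3.56 ± 0.05 in total marrow (SD, n = 2), with an interval of the difference from 0.12 to 2.76 (limma adjusted p = 0.119). It was called without wild type replicate 1 (1.89, limma adjusted p = 0.0459), while without wild type replicate 3, the array high for Mfap5, the difference was 0.79 (limma adjusted p = 0.0527).

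Penk averaged 3.44 ± 0.36 in wild type cells (SD, n = 3) against 4.47 ± 0.31 in total marrow (SD, n = 2). The difference of -1.03 was not called (limma adjusted p = 0.0767), but 6 alternatives called it, with adjusted p from 0.00289 to 0.0478. Dpt differed from total marrow by 0.39 in YFP-positive cells (95% interval -0.93 to 1.71) and 1.15 in wild type cells (-0.16 to 2.47). Cytl1 differed by 0.22 (-1.43 to 1.88) and 0.94 (-0.72 to 2.59), Thbs4 by 0.27 (-0.34 to 0.89) and 0.49 (-0.13 to 1.11), and Pcolce2 by 0.11 (-0.24 to 0.46) and 0.19 (-0.16 to 0.54), in the same order of groups. Single arrays carried much of these: for wild type cells Cytl1 differed by 0.08 and Thbs4 by 0.30 without wild type replicate 2, and Dpt by 0.58 without wild type replicate 3. For YFP-positive cells Dpt differed by 0.06 and Thbs4 by 0.07 without YFP-positive replicate 3. Dpt and Pcolce2 lay below the median of all values in all 3 groups, so the size of their differences is not resolved. The same holds for Thbs4 and Cytl1 between YFP-positive cells and total marrow, where both groups lay below that median.

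**Figure D3:**
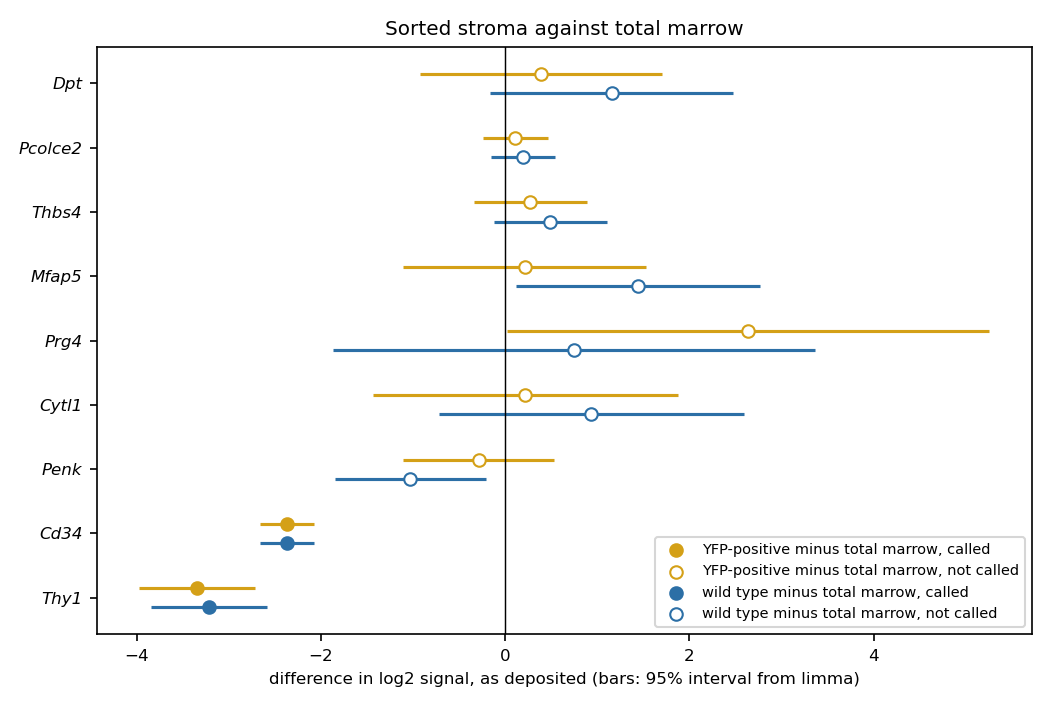
Difference in deposited log2 signal between YFP-positive cells and total marrow and between wild type cells and total marrow for the 9 genes (x axis), with bars for limma's 95% interval and filled points for called differences. Cd34 and Thy1 lie below 0 in both comparisons, and the interval of Prg4 in YFP-positive cells runs from 0.02 to 5.26.

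YFP-positive and wild type cells were also compared with each other. The choice did not use their difference, but it kept only genes with all their arrays below the YFP-negative array. That disfavoured genes raised in either group, so a lack of calls is no finding about the 9. 0 of 9 members were called, and 0% of all rows were called by limma. At an unadjusted p under 0.05 there were 2 members, Mfap5 and Penk, among 3250 rows. Mfap5 differed by -1.23 between YFP-positive and wild type cells (95% interval -2.41 to -0.05, limma adjusted p = 0.326). Without wild type replicate 3 the difference was -0.58. Penk differed by 0.74 (0.01 to 1.48, limma adjusted p = 0.334), and Prg4 by 1.89 (-0.45 to 4.23), with overlapping groups. Without YFP-positive replicate 3 these differences were 0.44 and 0.99, and without YFP-positive replicate 2 that of Prg4 was 3.01. Cd34 differed by less than 0.01, with an interval from -0.26 to 0.26, and Thy1 by -0.13 (-0.69 to 0.43).

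The related genes of the same families were set beside the members. None of the 12 measured was called in YFP-negative cells against the mean of the YFP-positive and wild type groups (limma on loess values, 6 with an unadjusted p under 0.05), where 5.56% of all rows were called. Without YFP-positive replicate 1 Comp was called higher (1.14, limma adjusted p = 0.0463), and without YFP-positive replicate 3 Pnoc was (0.92, limma adjusted p = 0.0180). With no replicate of its own, the YFP-negative array was taken to vary as the replicated groups do. That cannot be checked with 1 array, and every adjusted p of this contrast, here and below, rests on it. After cyclic loess 24.9% of all rows lay above and 23.7% below all 6 other sorted arrays on the YFP-negative array. Among the relatives, Pcolce, the Prg4 relative Vtn, 2 of 2 Cd34 relatives, 2 of 4 thrombospondins and 2 of 3 opioid precursors lay above all 6. Mfap2 did not. Pcolce, the better-known relative of Pcolce2, stood at 12.04 on the YFP-negative array, against a mean of 11.78 in YFP-positive cells and 11.30 in wild type cells and 4.10 in total marrow (loess values). Mfap2, the relative of Mfap5, stood at 8.61 on the YFP-negative array, against means of 8.77 for the YFP-positive and 8.70 for the wild type group.

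Among thrombospondins, Comp, which encodes cartilage oligomeric matrix protein, stood at 7.43 on the YFP-negative array, against 5.81 in YFP-positive cells and 6.43 in wild type cells (difference 1.31 ± 0.41 SE, limma adjusted p = 0.114). Thbs1 differed by -0.62, Thbs2 by 0.77 and Thbs3 by -0.51. Vtn, which shares domains with Prg4, differed by 0.72, and the Cd34 relatives Podxl and Podxl2 by 0.43 and 0.59. The opioid precursors Pnoc, Pdyn and Pomc differed by 0.82, 0.47 and 0.20.

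Genes that are no members were then counted in 16 lists of matrix functions and cell types, 232 genes in all, in the same contrast of the YFP-negative array with the mean of the YFP-positive and wild type groups. Over all rows 3.57% were called higher and 1.99% lower, and the median of all rows was 0.00. Of the listed genes 23 were higher and 3 lower. On deposited values the median of all rows was -0.90, and 7 of the 23 then fell below 0 (Cilp, Fbln2, Oprd1, Col15a1, Col9a1, Sox5 and Vwf), so their direction rests on removing the offset. After quantile normalization all 23 stayed above 0, but Chad, Ecrg4 and Ppbp were not called. The lists were chosen with earlier results of these data known. Their counts therefore describe the listed genes and are no independent support for a cell type. Some genes stand in several lists, so the counts of the lists overlap.

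The list of adventitial fibroblast genes, which mark the fibroblasts of vessel sheaths and fascia, had 9 of 22 called higher and 0 lower, with a median of 0.73. Igfbp6 led at 4.19 ± 0.16 (SE, limma adjusted p = 0.000136), followed by the surface antigen gene Cd248 (1.95), the chemokine scavenger gene Ackr3 (1.95) and Gsn, which encodes gelsolin (1.77). Without 1 of the arrays at a time the count ranged from 6 to 10, lowest without wild type replicate 2 or 3. The call of Cd248 ended in 4 of these 8 refits (highest adjusted p = 0.0719), those without wild type replicate 2 or 3 or either total marrow replicate. Of the called genes, Pi16, Col15a1, Mfap4, Fbln2 and Col14a1 lay only at percentiles 57.9 to 62.5 of the YFP-negative array. Pi16 stood at 4.86 there and higher, at 6.62 and 5.80, in total marrow (loess values). Its call ended without YFP-positive replicate 2 or any 1 of the wild type replicates. Pdgfra, another gene of this list, stood at 9.06 on the YFP-negative array, against 9.74 in YFP-positive cells and 9.37 in wild type cells (difference -0.50, limma adjusted p = 0.183).

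Fibril assembly genes split, with 4 of 25 higher and 2 lower and a median of 0.40. Fmod, which encodes the collagen-binding proteoglycan fibromodulin, was higher by 2.45 ± 0.31 (SE, limma adjusted p = 0.0128) and Dcn, which encodes decorin, the partner of dermatopontin, by 1.31. Col14a1, which encodes a collagen that sits on fibril surfaces and is also counted in the adventitial fibroblast list, was higher by 1.09 and Cilp by 0.93. The collagen chaperone gene Serpinh1 was lower (-1.68 ± 0.24 SE, limma adjusted p = 0.0162) and so was the collagen chain gene Col1a2 (-0.83). All of these calls held in each of the 8 refits without 1 array. Procollagen processing and crosslinking genes, the setting in which Pcolce2 acts, had 0 of 18 called in limma. Bmp1, the protease that Pcolce2 assists, differed by -0.59 (limma adjusted p = 0.0936), and Pcolce by 0.49 (limma adjusted p = 0.138).

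Elastic microfibril genes, the setting of Mfap5, had 2 of 14 higher and 1 lower. Both higher genes are also counted in the adventitial fibroblast list. Mfap4 was higher by 1.54 and Fbln2 by 0.87, and Ltbp2 was lower (-1.20), a call that ended without wild type replicate 1 or either total marrow replicate (adjusted p up to 0.0594). In the opioid peptide system, the setting of Penk, 2 of 12 were higher: Anpep, an aminopeptidase that degrades enkephalins, by 2.28, and the delta receptor gene Oprd1 by 0.79. The Oprd1 call ended without either total marrow replicate (adjusted p up to 0.0543), which left 1 gene called.

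Tendon and ligament genes had 4 of 16 higher, Chad (5.68), Fmod, Ecrg4 (1.68) and Cilp (0.93), and 2 were called without any 1 of the wild type or total marrow replicates. The Ecrg4 call ended in those 5 refits and without YFP-positive replicate 1 (adjusted p up to 0.0949). The tendon regulators Scx (-0.65, limma adjusted p = 0.123) and Mkx (-0.26, limma adjusted p = 0.679) and the tendon marker Tnmd (0.11, limma adjusted p = 0.812) were not called. Joint lining and cartilage genes had 5 of 21 higher, Chad, Creb5 (1.88), Acan (0.89), Sox5 (0.69) and Col9a1 (0.54). That count ranged from 1 to 7 without 1 array, and was 1 without either total marrow replicate, 2 without any wild type replicate and 3 without YFP-positive replicate 2. The call of Creb5 ended without either total marrow replicate (adjusted p up to 0.0571). Those of Sox5 (up to 0.0720) and Col9a1 (up to 0.0801) ended without any 1 of the wild type or total marrow replicates, and that of Col9a1 also without YFP-positive replicate 2. Acan and Sox5 lay below the median of all loess values (4.53) on the YFP-negative array. Chad kept its call only without YFP-positive replicate 3 (adjusted p up to 0.0944 in the other 7 refits).

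Reticular mesenchymal genes, which mark the Il7-producing stroma, had 0 of 15 called in limma, with a median of 0.05. Lepr, which encodes the leptin receptor, stood at 11.30 on the YFP-negative array, against 11.36 in YFP-positive cells and 10.87 in wild type cells. Cxcl12 stood at 12.43, against 12.33 and 12.09, and Kitl at 10.98, against 10.62 and 10.27 (loess values, same order of groups). Kitl (limma adjusted p = 0.0944) and Sfrp4 (0.78, limma adjusted p = 0.154) came nearest to a call. The YFP-negative array thus held the members' signal together with reticular transcripts at the level of the other sorted arrays.

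Markers of other cells that carry Cd34 or Thy1 were counted beside these members. Of 18 endothelial genes 1 was higher, Vwf (0.69), and the mean signal of the list was 4.10 on the YFP-negative array, against 3.89 to 4.02 on the 6 other sorted arrays and 4.09 and 4.07 in total marrow. The YFP-negative array exceeded all 6 for 12 of 18 endothelial, 3 of 12 progenitor and 5 of 15 T and NK cell genes. Over all rows 24.9% did so (loess values). The Vwf call ended without YFP-positive replicate 2, wild type replicate 2 or 3 or either total marrow replicate (adjusted p up to 0.0719). Of 12 haematopoietic progenitor genes 0 were called, and the list's mean was 4.51, against 4.33 to 4.71 on the others and 5.92 and 5.83 in total marrow. Gata2 differed by 1.11 (limma adjusted p = 0.0598) and Kit by -1.35 (limma adjusted p = 0.263), and Gata2 was called without YFP-positive replicate 2 or 3 (adjusted p = 0.0246 and 0.0412). Of 15 T and NK cell genes 0 were called, with a mean of 3.55, against 3.36 to 3.53 on the others and 5.56 and 5.39 in total marrow. Pecam1 stood at 4.09 and Cd3e at 5.19 on the YFP-negative array, against 3.61 and 4.97 in YFP-positive cells and 3.76 and 4.65 in wild type cells, and Cd4 at 3.89, against 3.62 and 3.61. Their part in the signal of Cd34 and Thy1 was not tested.

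The remaining lists had few or no calls. Osteoblast genes had 1 of 8 higher, Dmp1 (1.04), and other leucocyte and erythroid genes had 1 of 16 higher, Ppbp (1.11). The Dmp1 call ended without wild type replicate 3 or either total marrow replicate, and the Ppbp call without YFP-positive replicate 2, wild type replicate 1 or either total marrow replicate (adjusted p up to 0.0711 and 0.0719). Smooth muscle and pericyte (0 of 13), Schwann and neural (0 of 9) and skeletal muscle genes (0 of 12) had no call in limma with all arrays. Rgs5 and Kcnj8 were called higher without YFP-positive replicate 2, Pmp22 without YFP-positive replicate 1 and Tnnt3 without YFP-positive replicate 3 (adjusted p from 0.0162 to 0.0437). Nearest in these were Rgs5 (2.12, limma adjusted p = 0.149) and Kcnj8 (0.77, limma adjusted p = 0.236), Ncam1 (-0.64, limma adjusted p = 0.146) and Pmp22 (1.18, limma adjusted p = 0.158), and Tnnt3 (0.65, limma adjusted p = 0.0513) and Myh2 (-0.43, limma adjusted p = 0.180).

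**Figure D4:**
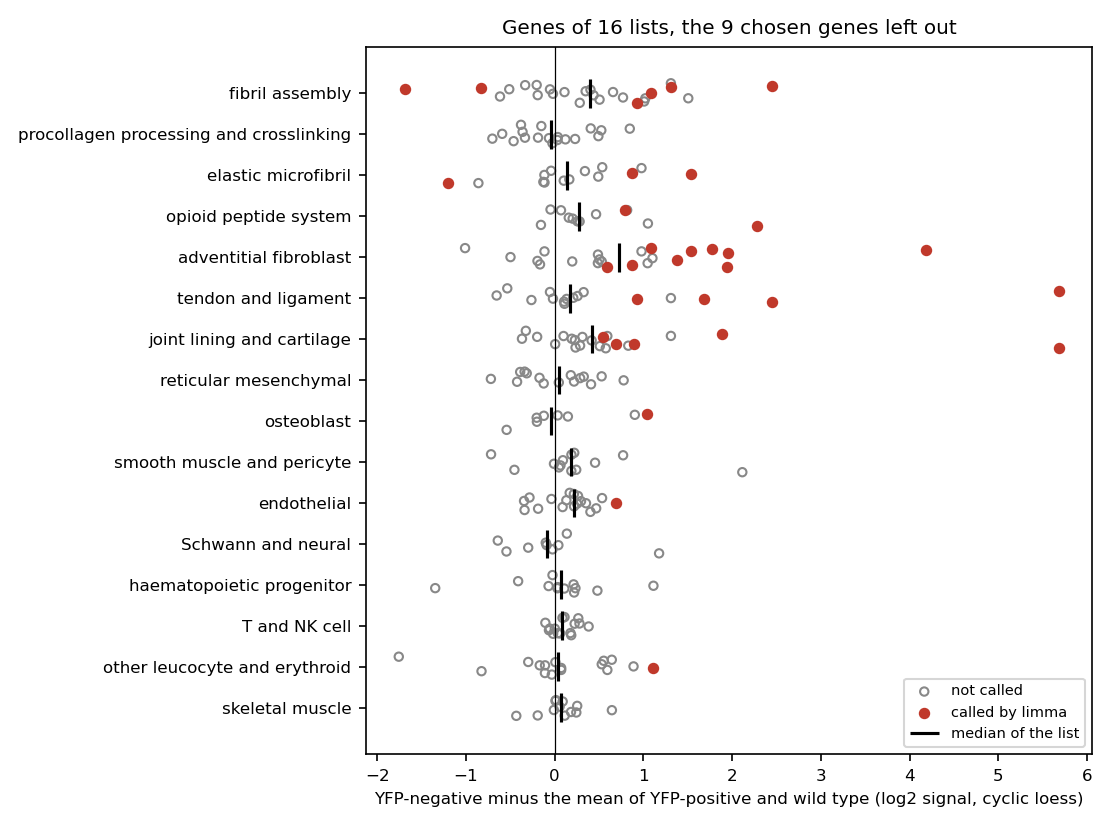
Difference in log2 signal after cyclic loess between the YFP-negative array and the mean of the YFP-positive and wild type groups for the genes of 16 lists (rows), each point a gene, filled where limma called it, with a line at each list's median and the 9 chosen genes left out. The adventitial fibroblast list has the most filled points, 9 of 22, and the reticular mesenchymal list has none.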

How the data were processed

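Amplified cDNA (NuGEN Ovation Pico WTA, second version) was hybridised to Affymetrix Mouse Gene ST 1.0 arrays, per the labels' protocols. The authors deposited 1 log2 signal per transcript cluster and array, made with RMA in Affymetrix Expression Console 1.3.1, per the submitters' processing notes. Whether all arrays were summarised together is not given in the sources used here.

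Of 35556 rows, the 21789 with exactly 1 gene symbol in the platform annotation were used (19938 genes; 999 had several rows, and values and ranks per gene are those of the row with the highest mean). All 9 arrays entered 1 model with a mean per group, fitted in limma 3.58.1 under R 4.3.3, with 5 residual and 2.50 (deposited values) or 2.27 (cyclic loess values) prior degrees of freedom. Contrasts without the YFP-negative array used deposited values, and contrasts with it used cyclic loess values. Tests were two-sided, with Benjamini-Hochberg adjustment over all rows and calls under 0.05, and no filter on signal. Intervals are limma's. The number of arrays limits the precision.

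Members and lists were chosen with earlier results of these data known. Named are all members, their family genes, the gate genes, genes most alike by r, and up to 4 called genes of each list by size, or up to 2 by p; any further gene was added with its values known. On simulated data of 21789 rows, with 100 genes changed by each size, the fit recovered 58% of changes of 1 log2 unit and 80% of 2 units for YFP-positive against total marrow. The shares were 45% and 82% for wild type against total marrow, 69% and 92% for YFP-positive against wild type, and 40% and 78% for the YFP-negative contrast. The simulated YFP-negative array had the spread of the replicated groups and no offset, so the last shares hold only for that setting. Same-numbered arrays did not deviate together (r from -0.08 to 0.06 over 7 pairs), so no block was used.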

Additional observations from a re-analysis of the deposited data

How the results depend on the processing

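Cd34 and Thy1 stayed lower than total marrow and called in both sorted groups under every alternative run (normalization, dim-row filter, moderation, array weights, fit without the YFP-negative array, replicate block, each replicate left out). Under these alternatives 2 to 3 members were called against total marrow for each sorted group, and 0 between YFP-positive and wild type cells. The choice favoured genes low on the sorted arrays, so the steady lower calls of Cd34 and Thy1 are no finding about the 9. Directions that turned belong to uncalled differences. For YFP-positive against total marrow these were Pcolce2 with cyclic loess (-0.015), and Dpt (-0.061) and Mfap5 (-0.18) with the replicate block; Pcolce2 ranged from -0.016 to 0.19 without 1 replicate, below 0 without YFP-positive replicate 3. For YFP-positive against wild type Cd34 turned with cyclic loess (-0.013) and quantile normalization (-0.12). Without 1 replicate Cd34 ranged from -0.086 to 0.079, below 0 without YFP-positive replicate 1 or wild type replicate 1 or 2. Likewise Thy1 ranged from -0.35 to 0.094, above 0 without YFP-positive replicate 1, and Cytl1 from -1.18 to 0.14, above 0 without wild type replicate 2. The cause was not tested. Rows called over the whole array without 1 replicate ranged from 3636 to 6622 for YFP-positive against total marrow, fewest without total marrow replicate 1 and 4179 without replicate 2. They ranged from 3398 (without total marrow replicate 1) to 5980 for wild type against total marrow, and from 0 to 26 (without YFP-positive replicate 1) between YFP-positive and wild type, where trend and robust moderation called 9. The 1211 rows called in the YFP-negative contrast became 17195 on deposited values (85 higher), 2107 after quantile normalization (1212 higher), 4222 with arrays centred on their medians (3064 higher) and 7 with the replicate block. They ranged from 485 to 1874 without 1 of the 8 other arrays: 485 without either total marrow replicate (leaving these out was chosen after seeing the data), 667 to 725 without 1 wild type replicate and 1874 without YFP-positive replicate 3. Of the 26 listed genes called, 13 were called in all 8 refits without 1 array and 1, Igfbp6, with the replicate block. Same-numbered arrays share only a number, so that block is no paired design. Signals below the median of all values limit how well the size of a difference is known.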
